A study of Mus musculus with 20 samples.

Results

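The clustered histone genes are the mouse genes whose symbols begin with Hist1h, Hist2h, Hist3h or Hist4h. They were taken by that name pattern from the deposited expression table, which held 68 of them among 22564 genes. By histone type they comprised 6 linker histone H1 genes and, of the core histones, 19 H2A, 18 H2B, 12 H3 and 13 H4 genes. By cluster, 55 belonged to Hist1 on chromosome 13, 10 to Hist2 on chromosome 3, 2 to Hist3 on chromosome 11 and 1, Hist4h4, to chromosome 6.

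The table came from RNA sequencing of heart and tibialis anterior (TA) muscle in 5 groups of 2 mice, giving 20 libraries. Wild-type mice were C57BL/6N, as were the transgenic mice by label. The transgene, which was injected into fertilised eggs as linearised plasmids, encodes a system for incorporating an unnatural amino acid (UAA). The mdx mice, labelled C57BL/10, carry a nonsense mutation in the dystrophin gene, Dmd, and serve to model Duchenne muscular dystrophy. Crosses of the transgenic and mdx mice, called trans/mdx and labelled C57BL/6N, made up the remaining groups, either without UAA or after 4 weeks of 50 mg of the UAA NAEK every 2 to 3 days. The transgene's promoter and the age and sex of the mice were not stated. By the design text both tissues came from the same mice, but it does not say that the number in a title marks the mouse. Libraries were therefore not paired, apart from an alternative fit with a block for the mouse number. The muscle libraries titled as the cross without UAA carry the genotype label transgenic and were grouped by title. Ribosomal RNA was depleted from total RNA, without selection for poly(A) tails.

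Histones package DNA: H2A, H2B, H3 and H4 form the nucleosome core, and H1 binds the linker DNA between nucleosomes. Most genes of the clusters are transcribed during DNA replication, and their messages normally end just after a conserved stem-loop, bound by the stem-loop-binding protein Slbp, in place of a poly(A) tail. Some of them are also known to give polyadenylated transcripts that run past the stem-loop in cells that no longer divide. Heart muscle cells and mature muscle fibres rarely divide, and replication-independent genes outside the clusters, such as H3f3a and H3f3b for histone H3.3 and H1f0 for H1.0, are known to supply histones there.

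The 3′ stem-loop was looked for on the sense strand of the coding transcripts of GENCODE M21 (GRCm38/mm10), as a stem that opens with GG and closes with CC around a loop rich in T. It lay in annotated transcripts of 46 of the 68 genes. The longest coding models among the other 22 had a median of 408 bases. Sequence past the end of a model was not searched, so those genes may still have the stem-loop. Of all 58797 coding transcripts, 0.355% held the stem-loop, from 136 genes of which 46 were clustered histone genes. The sites of genes that the results below turn on are shown as DNA, 5′ to 3′ on the gene's own strand, with the stem-loop in capitals.
Hist1h1c (chr13:23739507-23739532, plus strand): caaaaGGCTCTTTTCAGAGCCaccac
Hist1h1e (chr13:23621777-23621802, minus strand): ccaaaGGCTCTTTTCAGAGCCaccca
Hist1h2be (chr13:23585526-23585551, minus strand): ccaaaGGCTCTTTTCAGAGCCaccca
Hist2h2ac (chr3:96220413-96220438, minus strand): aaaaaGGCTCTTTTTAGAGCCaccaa
Hist1h4c (chr13:23698084-23698109, minus strand): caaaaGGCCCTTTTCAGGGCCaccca
Hist1h4d (chr13:23581945-23581970, plus strand): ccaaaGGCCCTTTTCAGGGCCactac
Hist1h4h (chr13:23531453-23531478, plus strand): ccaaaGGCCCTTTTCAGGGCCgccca
Hist1h4a (chr13:23760795-23760820, minus strand): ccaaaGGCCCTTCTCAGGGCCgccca
Hist1h4b (chr13:23757361-23757386, plus strand): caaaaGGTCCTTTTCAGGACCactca

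The stem letters followed histone type. All 4 H1, 11 H2A, 10 H2B and 9 H3 genes with the motif had the stem that opens GGCTC and closes GAGCC. None of the 12 H4 genes with it did: 10 opened GGCCC and closed GGGCC, and Hist1h4b and Hist1h4j opened GGTCC and closed GGACC. The 4 loop bases were TTTC in 35 of the 46 genes and TTTA in 6. Both arms of the stem were complementary in every one of the 46.

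What differed more between genes was how far the annotated transcript continued. In 23 genes it ran over 100 bases past the stem-loop, by 840 bases in Hist1h1c, 1153 in Hist1h1e, 770 in Hist1h4d, 454 in Hist1h4c, 1861 in Hist1h2be and 1643 in Hist3h2a. In another 23 it ended within 100 bases, after 46 bases in Hist1h4h and 57 in Hist2h2ac. For 22 genes no coding model held the motif. Among these, Hist1h2bc has a spliced model of 1156 bases and the row named Hist2h2bb carries an ID, ENSMUSG00000050936, that GENCODE M21 gives to a non-coding gene, Gm42743. That gene overlaps the coding gene Hist2h2bb on the same strand, so the values printed for Hist2h2bb may hold reads of either and are uncertain. The deposited table used shorter models for some: its locus spans 393 bases for Hist1h4d, 395 for Hist1h4c and 748 for Hist1h1e, against 1138, 820 and 1930 bases in GENCODE M21.

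Expression was deposited as FPKM, the fragments counted on a gene divided by its length and by the size of the library, which sets levels of different genes on a per-length scale. The spacing of low values put 1 fragment per kilobase at 0.246 to 0.330 FPKM in heart and 0.394 to 0.514 FPKM in muscle, so short genes at a few FPKM rest on few fragments. Heart libraries had 5113 to 7352 genes at 1 FPKM or more. Muscle wild-type replicate 2 stood apart with 8530 such genes, against 6794 to 7002 in the other 9 muscle libraries, and the summed FPKM of its table was 208611, against 136461 to 170265. All 8 heart muscle markers, led by Tnnt2 at 1530 to 2550 FPKM in heart, were higher in heart and all 9 fast skeletal muscle markers, led by Tnnt3 at 3680 to 6350 FPKM in muscle, were higher in muscle, by limma's moderated test with Benjamini-Hochberg adjustment. In bulk tissue, fewer cells of a type and less RNA per cell cannot be told apart. Dmd, the mutated gene, was at 12 to 17.9 FPKM in heart libraries without the mdx allele and 7.65 to 26.4 FPKM in those with it; in muscle it was at 16.5 to 34.6 and 17.5 to 33.7 FPKM, so the ranges overlapped in both tissues.

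Most clustered histone genes gave little or no signal. 11 of the 68 were listed at 0 in all 20 libraries: Hist1h1t, Hist1h2aa, Hist1h2ag, Hist1h2al, Hist1h2an, Hist1h2ba, Hist1h2bp, Hist1h2br, Hist1h4j, Hist1h4k and Hist1h4m. Hist1h1t, Hist1h2aa and Hist1h2ba are known as histone genes of male germ cells. A further 14 were above 0 in a single library, and 23 in all never reached 1 FPKM. At the other end, 10 genes had 1 FPKM or more in at least 10 libraries: Hist1h2bc, Hist1h1c, Hist1h4d, Hist1h4c, Hist1h1e, Hist1h4h, Hist2h2bb, Hist2h2ac, Hist3h2a and Hist1h2be. These 10 made up 57.1 to 85.0% of the members' summed FPKM in heart (median 78.5%) and 59.4 to 96.5% in muscle (median 89.8%). Of them, 6 were among the 23 genes annotated well past the stem-loop, 2 among the 23 that end near it and 2, Hist1h2bc and the row named Hist2h2bb, among the 22 without it in a coding model. The 50-base stretches found in no other annotated transcript covered a median of 75.4%, 39.6% and 22.9% of the genes in those 3 classes. The class and the uniqueness of the sequence moved together, and their parts in the levels were not tested.

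**Figure D1:**
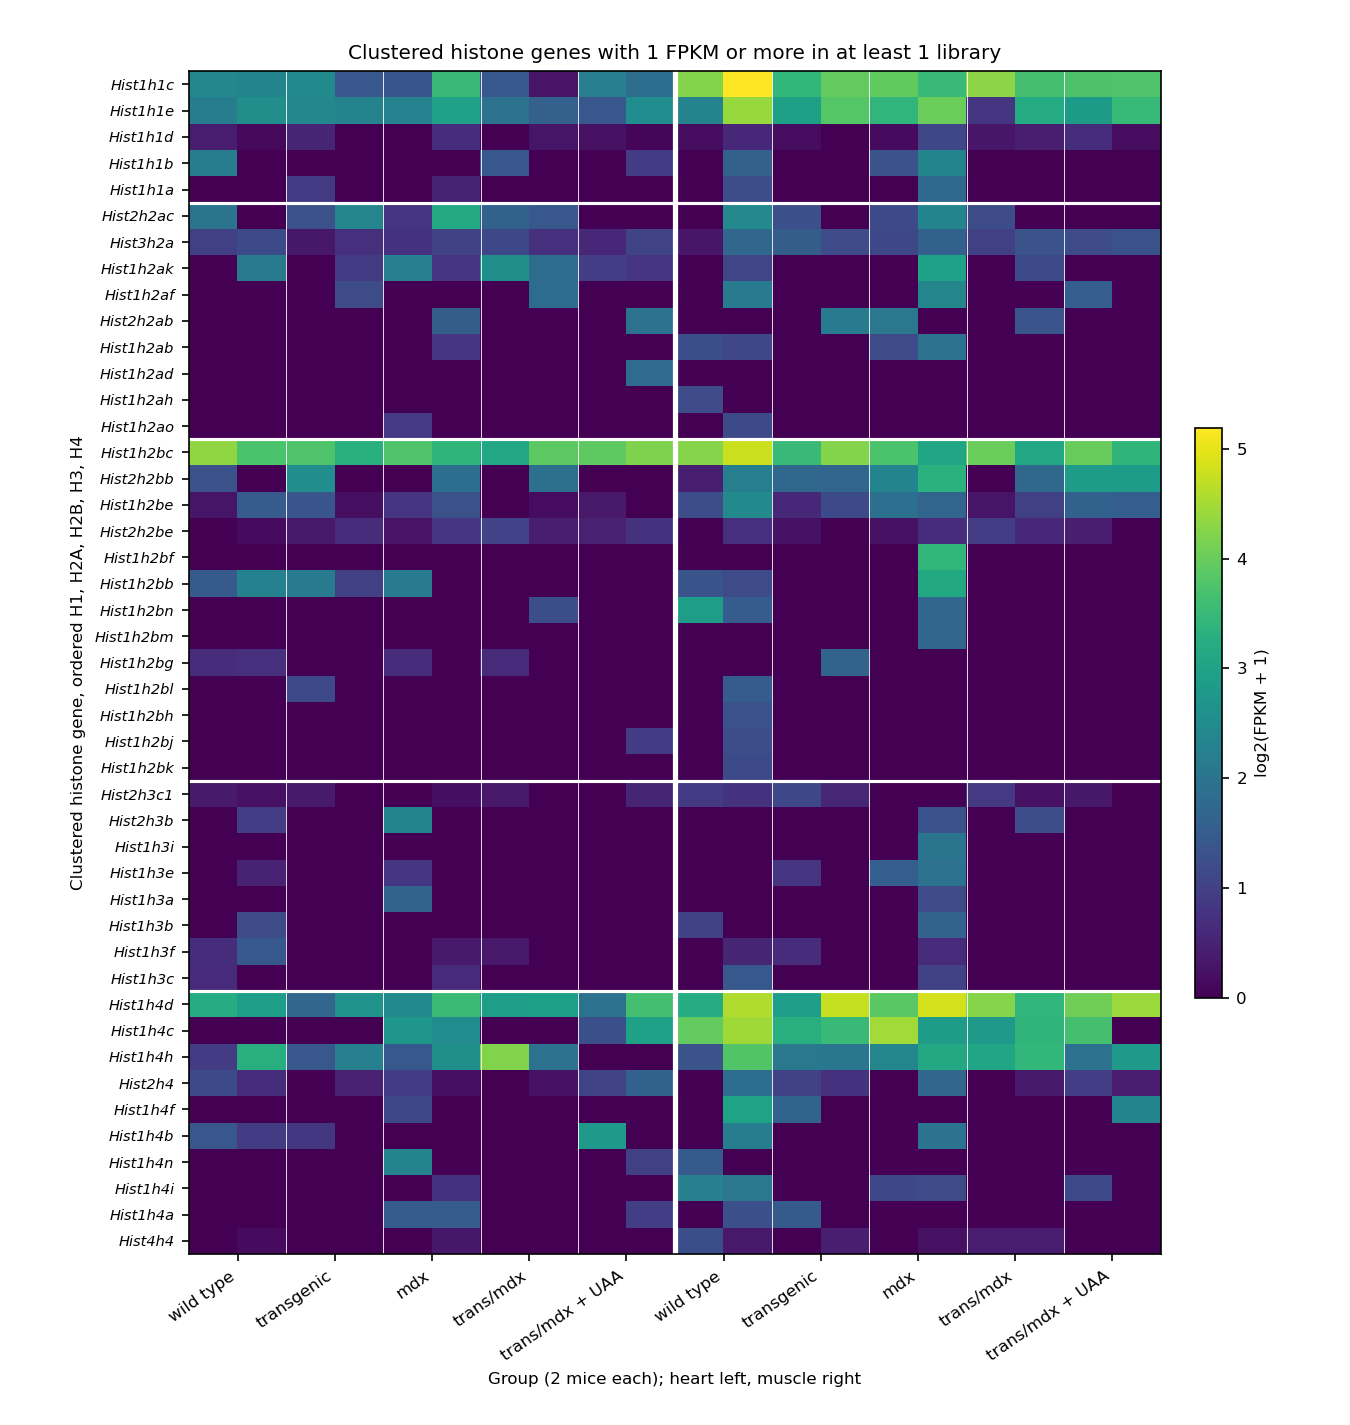
FPKM of every clustered histone gene that reached 1 FPKM in at least 1 of 20 libraries, on a log2(FPKM + 1) colour scale, with genes ordered by histone type and columns by tissue and group (2 mice each). A few rows, Hist1h2bc, Hist1h1c and Hist1h4d among them, are bright across libraries; many of the others are above 0 in few libraries, most often muscle wild-type replicate 2 and muscle mdx replicate 2.

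Summed over the 68 genes, heart libraries held 53.9 and 53.9 FPKM in wild type, 41.3 and 33.2 in transgenic, 56.7 and 71.7 in mdx, 48.3 and 38.7 in trans/mdx and 32.9 and 57.9 in trans/mdx with UAA. In muscle the sums were 85.7 and 197 FPKM in wild type, 59.5 and 96.5 in transgenic, 94.0 and 156 in mdx, 70.7 and 68.4 in trans/mdx and 79.2 and 73.3 in trans/mdx with UAA. Heart and muscle overlapped, since heart mdx replicate 2 exceeded 3 muscle libraries. The highest sums were those of muscle wild-type replicate 2 and muscle mdx replicate 2, each far above the other mouse of its group. They also had 37 and 33 members above 0, against 14 to 20 in the other 8 muscle libraries. As a share of all FPKM the members made up 0.0229 to 0.0478% in heart and 0.0405 to 0.114% in muscle.

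**Figure D2:**
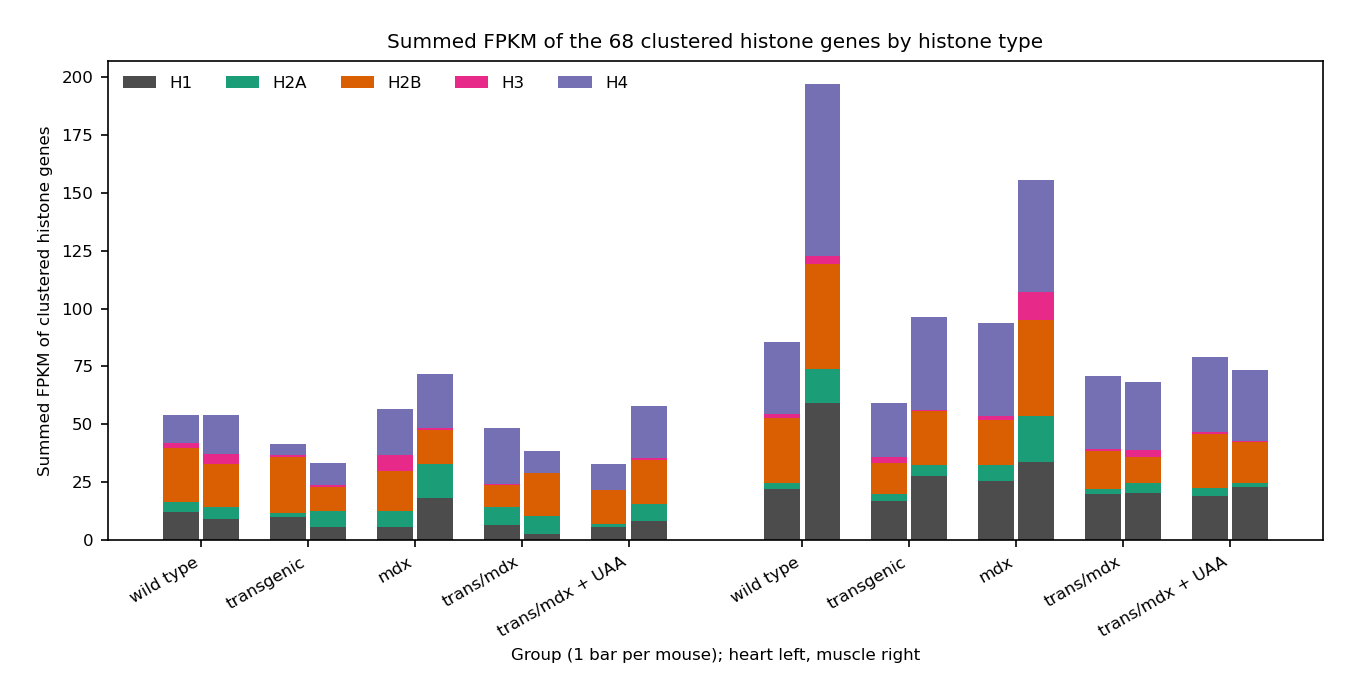
Summed FPKM of the 68 clustered histone genes in each library (1 bar per mouse), stacked by histone type, heart on the left and muscle on the right. Sums reach 71.7 FPKM in heart and 197 FPKM in muscle, and H3, in pink, is the thinnest layer in most bars.

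By type, the 6 H1 genes summed to 2.44 to 18.1 FPKM in heart and 16.8 to 59.4 FPKM in muscle. H2A genes summed to 1.45 to 14.9 FPKM (median 6.82) and 1.68 to 20 FPKM (median 3.81), and H2B genes to 9.23 to 23.9 and 11.4 to 45.5 FPKM, respectively. H3 genes summed to 0 to 6.92 FPKM in heart and 0.418 to 12.3 FPKM in muscle, and H4 genes to 4.71 to 24.0 and 23.4 to 74.5 FPKM. H4 contributed a median of 31.8% of the sum in heart and 41.2% in muscle, and H3 a median of 2.03% and 1.86%. Nucleosomes hold equal numbers of H3 and H4, but their clustered genes were far from equal in FPKM. Sequence uniqueness differed as well. Unique 50-base stretches covered 89.8% of Hist1h4d and 80.4% of Hist1h4c, though only 14.4% of Hist1h4n. Among H3 genes they covered from 0% of Hist2h3c1 to 75.2% of Hist1h3d. The part of uniqueness in the gap between H3 and H4 was not tested.

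The H1 genes were led by Hist1h1c (H1.2; ENSMUSG00000036181; chr13:23738808-23740367, plus strand; a single-exon gene) and Hist1h1e (H1.4; ENSMUSG00000051627; chr13:23620629-23622558, minus strand), whose stem-loops are shown above. Hist1h1c had 4.36 and 4.08 FPKM in heart wild type, 4.53 and 1.64 in transgenic, 1.63 and 10.3 in mdx, 1.70 and 0.206 in trans/mdx and 3.65 and 2.67 in trans/mdx with UAA. In muscle it had 17.7 and 35.6, 9.88 and 14.5, 14.3 and 10.4, 18.7 and 11.7, and 12.4 and 12.6 FPKM in the same order of groups. Of the 10 muscle libraries, 9 exceeded the highest heart library, so the tissues overlapped by a single value on each side. In heart, Hist1h1e ran from 1.65 to 6.81 FPKM (median 3.97), and muscle libraries spanned 0.775 to 19.9 FPKM (median 8.94), with 6 muscle libraries above all heart libraries. The remaining H1 genes stayed low: Hist1h1d reached 1.15, Hist1h1a 2.44 and Hist1h1b 4.10 FPKM, all in muscle mdx replicate 2. Outside the clusters, H1f0 was at 1.75 to 7.57 FPKM in heart and 7.45 to 16.1 FPKM in muscle.

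Among the H2B genes Hist1h2bc (ENSMUSG00000018102; chr13:23684199-23692908, plus strand) was the only clustered histone gene besides Hist1h4d with 1 FPKM or more in all 20 libraries. Its levels were 19.1 and 12.2 FPKM in heart wild type, 12.6 and 8.65 in transgenic, 12.6 and 9.58 in mdx, 7.63 and 13.8 in trans/mdx and 14.0 and 17.3 in trans/mdx with UAA. Muscle gave 18.1 and 26.5, 10.4 and 17.8, 12.2 and 7.47, 15.0 and 7.56, and 14.9 and 9.56 FPKM. The tissues overlapped nearly throughout, and this gene alone made up a median of 27.9% of the members' sum in heart and 15.5% in muscle. At these levels it rested on at most 33.8 to 84.3 fragments in heart and 17.7 to 77.7 in muscle, taking its 1156 bases as the length. Hist2h2bb ranged from 0 to 4.83 FPKM in heart, where 6 of 10 libraries were at 0, and from 0 to 9.02 FPKM in muscle (median 3.03). Hist1h2be ranged from 0 to 1.82 FPKM in heart (median 0.253) and from 0.232 to 4.63 FPKM in muscle (median 1.65).

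Hist1h2bc shares its upstream region with an H2A gene on the opposite strand, Hist1h2ac, whose start lies 250 bases away. Hist1h2ac was above 0 in 3 of 20 libraries and reached 0.204 FPKM at most, although 85.9% of its 50-base stretches are unique. For Hist1h2bc 69.4% are unique, and it shares stretches with 220 other genes, so its level is uncertain too. The sequence between the genes is shown because both directions start from it and the levels differ so widely. It is RefSeq's 300-base promoter of Hist1h2ac (GRCm38.p6), chr13:23683910-23684209, minus strand, running 5′ to 3′ toward Hist1h2ac, with the TATA, CCAAT and octamer letters of either strand in capitals.
Hist1h2ac promoter: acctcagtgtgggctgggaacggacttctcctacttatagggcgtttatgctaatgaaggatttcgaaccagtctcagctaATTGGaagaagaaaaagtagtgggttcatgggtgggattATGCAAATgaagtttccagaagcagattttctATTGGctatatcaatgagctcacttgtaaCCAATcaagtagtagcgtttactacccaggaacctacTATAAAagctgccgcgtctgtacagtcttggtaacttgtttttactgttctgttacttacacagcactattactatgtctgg
The TATA search used TATAAA on both strands, the second search used CCAAT on both strands, and the octamer search used ATTTGCAT on both strands; their matches do not overlap here. It found 1 TATAAA, 3 CCAAT and 1 octamer, all matched by letters only. Of all 32851 RefSeq promoters of 300 bases, 13.6% held TATAAA, 37.4% CCAAT and 1.74% the octamer; of the 63 found for 62 clustered histone genes, 55.6%, 85.7% and 22.2% did.

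Such head-to-head pairs, with starts within 500 bases on opposite strands, numbered 12 among the clustered histone genes, and each joined an H2A and an H2B gene. In 9 of them both genes had a median of 0 over the 20 libraries. Hist1h2ac and Hist1h2bc were 1 of 2 pairs with a single gene above a median of 0; the other was Hist1h2ak (median 0.743 FPKM) with Hist1h2bn (0). The pair Hist2h2ac (median 1.26 FPKM) and Hist2h2be (0.356 FPKM) was the only one with both above 0. Position along chromosome 13 went with level too. The 31 Hist1 genes at chr13:23531050-23934851 summed to 25.7 to 54.0 FPKM in heart and 51.4 to 166 FPKM in muscle, and the 23 at chr13:21715763-22043676 to 0.928 to 9.27 and 0 to 19.8 FPKM. All 7 Hist1 genes among the 10 leading ones lay in the former. The median share of unique 50-base stretches was 59.9% there and 14.4% in the latter, and the part of uniqueness in this difference was not tested.

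The H2A genes with the highest medians were Hist2h2ac (chr3:96220361-96220880, minus strand), with 0 to 8 FPKM in heart libraries and 0 to 4.43 in muscle, and Hist3h2a (chr11:58954685-58956830, plus strand), with 0.265 to 1.24 and 0.236 to 2.30 FPKM. Hist3h2a was above 0 in every library, whereas Hist2h2ac was at 0 in 8. Hist1h2ak had a lower median, 0.743 FPKM, but reached 6.89 FPKM in muscle mdx replicate 2. Of the 50-base stretches of Hist2h2ac, 45% are unique, so its values are uncertain. The near-identical copies Hist2h2aa1 and Hist2h2aa2, whose names GENCODE M21 gives to each other's ID, had no unique stretch and reached 0.713 and 0.687 FPKM.

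By median summed FPKM, clustered H3 genes were the lowest histone type in both tissues. None of the 12 had 1 FPKM or more in 10 libraries, although none was at 0 everywhere. The highest median was that of Hist2h3c1, 0.225 FPKM, with a highest value of 1.19 FPKM in muscle transgenic replicate 1, and no 50-base stretch of it is unique. By contrast the H3.3 genes H3f3a and H3f3b together gave 13.3 to 57.6 FPKM in heart and 25.7 to 55.1 FPKM in muscle, above the clustered H3 sum in every library. H3f3a alone ran from 6.41 to 38.7 FPKM in heart and from 18.2 to 47.8 in muscle.

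**Figure D3:**
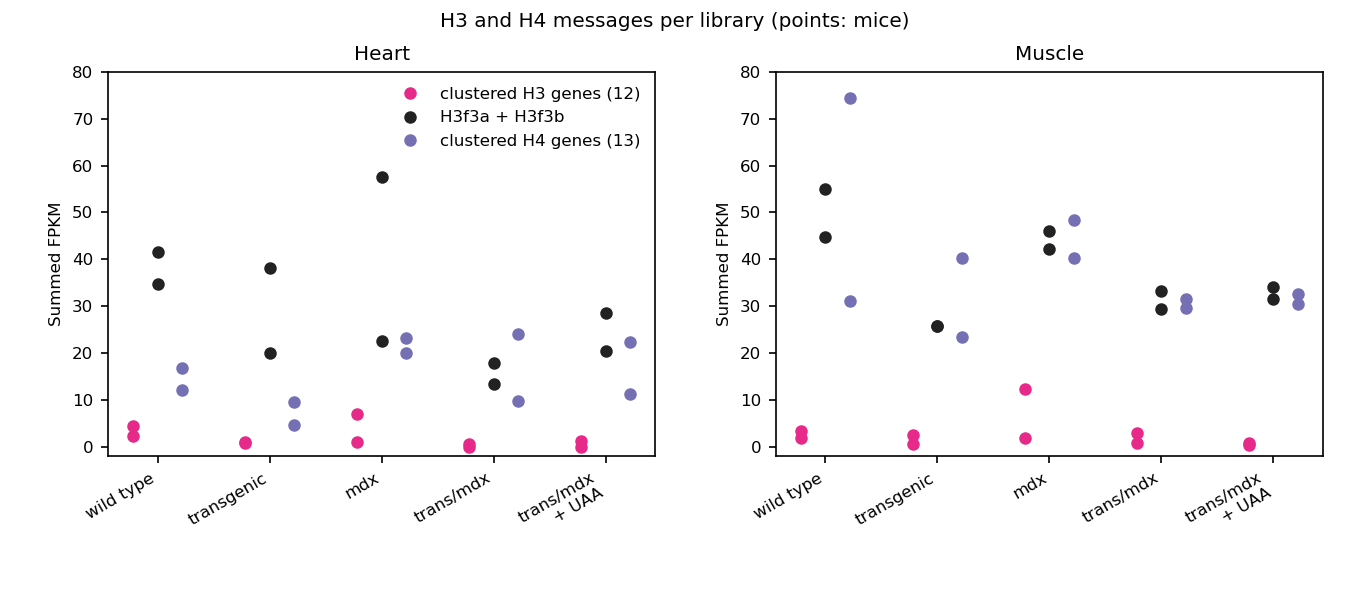
Summed FPKM per library (points, 2 mice per group) of the 12 clustered H3 genes, of H3f3a plus H3f3b outside the clusters, and of the 13 clustered H4 genes, with heart and muscle in separate panels. Clustered H3 stays at 0 to 12.3 FPKM while H3f3a plus H3f3b lies at 13.3 to 57.6 FPKM and H4 at 4.71 to 74.5 FPKM.

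H4, which has no such gene among the histone genes listed outside the clusters, came mostly from Hist1h4d, Hist1h4c and Hist1h4h. Hist1h4d (ENSMUSG00000061482; chr13:23581598-23582735, plus strand) had 8.34 and 6.56 FPKM in heart wild type, 2.28 and 5.25 in transgenic, 4.63 and 10.6 in mdx, 6.56 and 6.59 in trans/mdx and 2.86 and 11.5 in trans/mdx with UAA. Its muscle levels were 8.30 and 22.8, 6.57 and 25.5, 13.6 and 27.7, 18 and 9.63, and 15.8 and 20.2 FPKM. Muscle exceeded the highest heart library in 7 of 10 libraries. Mice of the same muscle group differed widely, from 6.57 to 25.5 FPKM in the transgenic group.

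Hist1h4c (ENSMUSG00000060678; chr13:23697635-23698454, minus strand) was listed at 0 in both heart libraries of the wild-type, transgenic and trans/mdx groups. It had 5.74 and 4.67 FPKM in heart mdx and 1.42 and 6.86 in trans/mdx with UAA. In muscle it had 14.4 and 20.8 FPKM in wild type, 8.68 and 10.5 in transgenic, 21.2 and 6.34 in mdx, 5.94 and 9.55 in trans/mdx and 11.7 and 0 in trans/mdx with UAA. The heart mdx libraries were thus above all other untreated heart libraries, at no more than 10.6 fragments in any heart library by its 395-base deposited length. An exact 0 in such a table can be a failed estimate. Up to 3 genes in a heart library and up to 8 in a muscle library were listed at 0 although the tissue's other libraries had a median of at least 5 FPKM, and mt-Nd1, a mitochondrial gene, was at 0 in 9 of 10 heart libraries and at 17200 FPKM in the other.

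Hist1h4h (chr13:23531050-23531519, plus strand) had 0.86 and 8.55 FPKM in heart wild type, 1.65 and 3.81 in transgenic, 1.68 and 5.04 in mdx, 17.5 and 2.87 in trans/mdx and 0 and 0 with UAA. Muscle levels ran from 1.52 to 12.7 FPKM with a median of 5.08. Mice of the same group differed widely. The gene lies in a deposited locus of 263487 bases that covers several genes, as 25 of the 68 members do in loci over 10000 bases, and 54.2% of its 50-base stretches are unique. Hist4h4, the chromosome 6 gene (chr6:136801553-136804415, minus strand), reached 1.37 FPKM in muscle wild-type replicate 1 and 0.260 FPKM at most in heart.

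**Figure D4:**
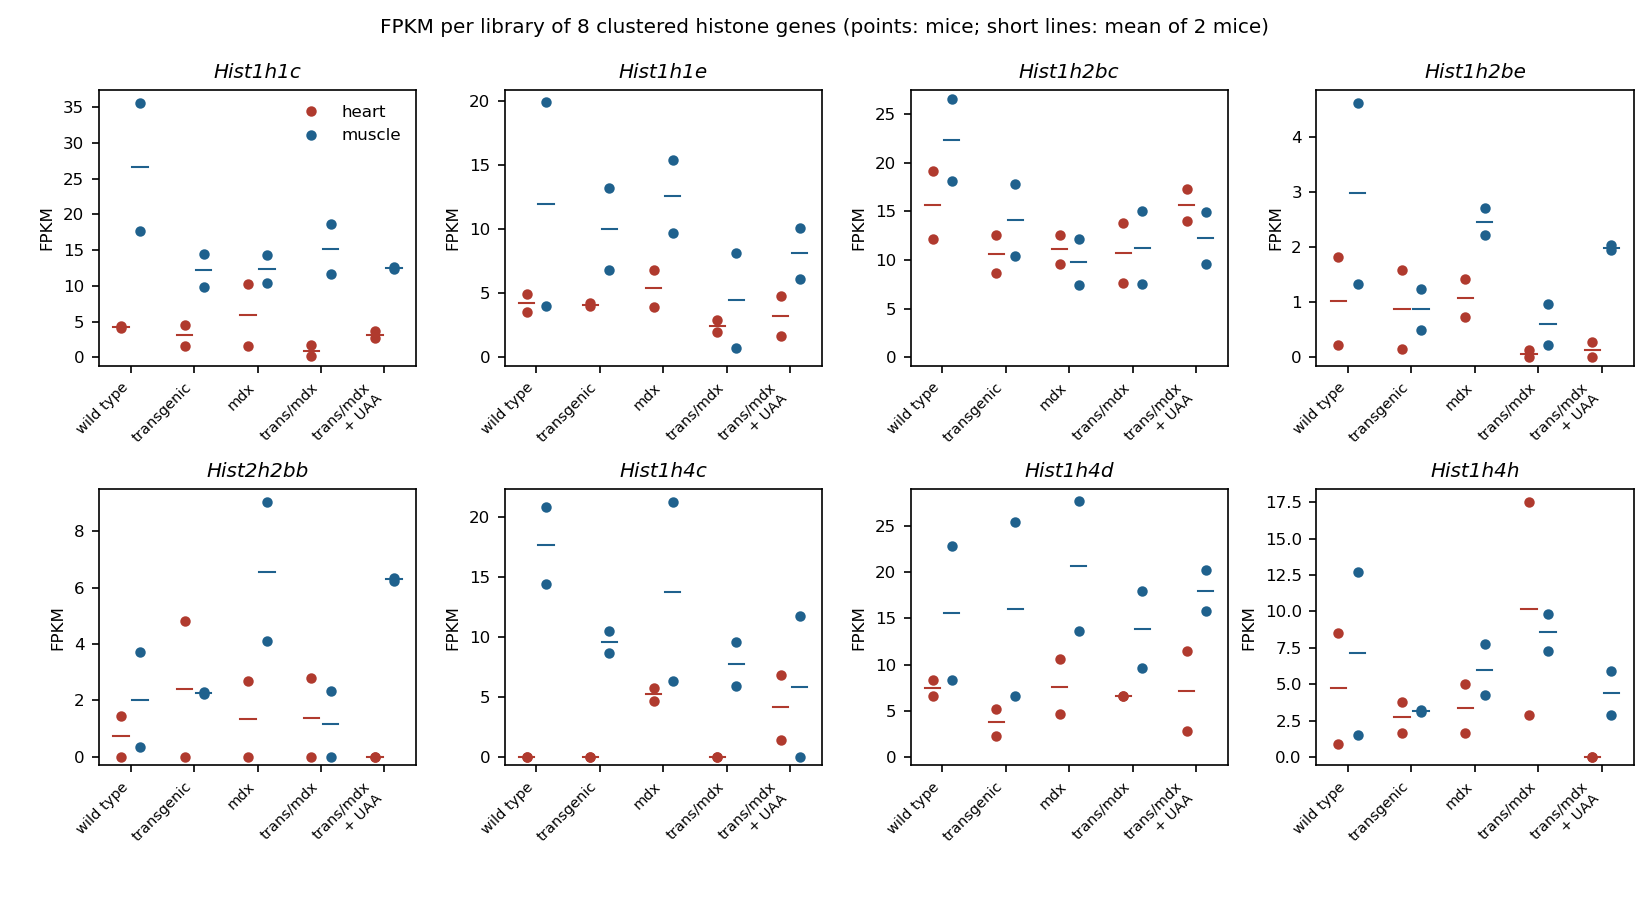
FPKM of 8 clustered histone genes in each library by group (red, heart; blue, muscle; points are mice and short lines the mean of 2 mice, on a linear scale). Hist1h1c is higher in each muscle library than in either heart library of its group, Hist1h2bc overlaps between tissues, and Hist1h4c sits at 0 in 6 heart libraries.

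Heart and muscle were compared over all 5 groups with limma on log2(FPKM + 1), among 10085 genes that reached 1 FPKM in 2 libraries or more. Of 30 clustered histone genes that passed this filter, 8 were called lower in heart at an adjusted p of 0.05 and none higher. Among all genes 31.2% were called lower, 10.4% higher and 41.6% in either direction, so the members' share, 8 of 30, is near the background and is not particular to them. The median change was -0.19 over the 30 members and -0.25 over all tested genes. Lower calls made up 75.1% of all calls as deposited, but 51.0% after median-of-ratios scaling and 48.0% after quantile normalization, where the median of all genes moved to -0.01 and 0.01. The members called numbered 6 and 5 under those scalings, again none higher, with 20.8% and 19.4% of all genes called lower. All 3 counts include Hist1h4i and Hist1h2ab, which reached 1 FPKM in no heart library as deposited. Both entered the test through muscle, which all but fixed their direction in advance, so their calls say nothing on direction.

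**Figure D5:**
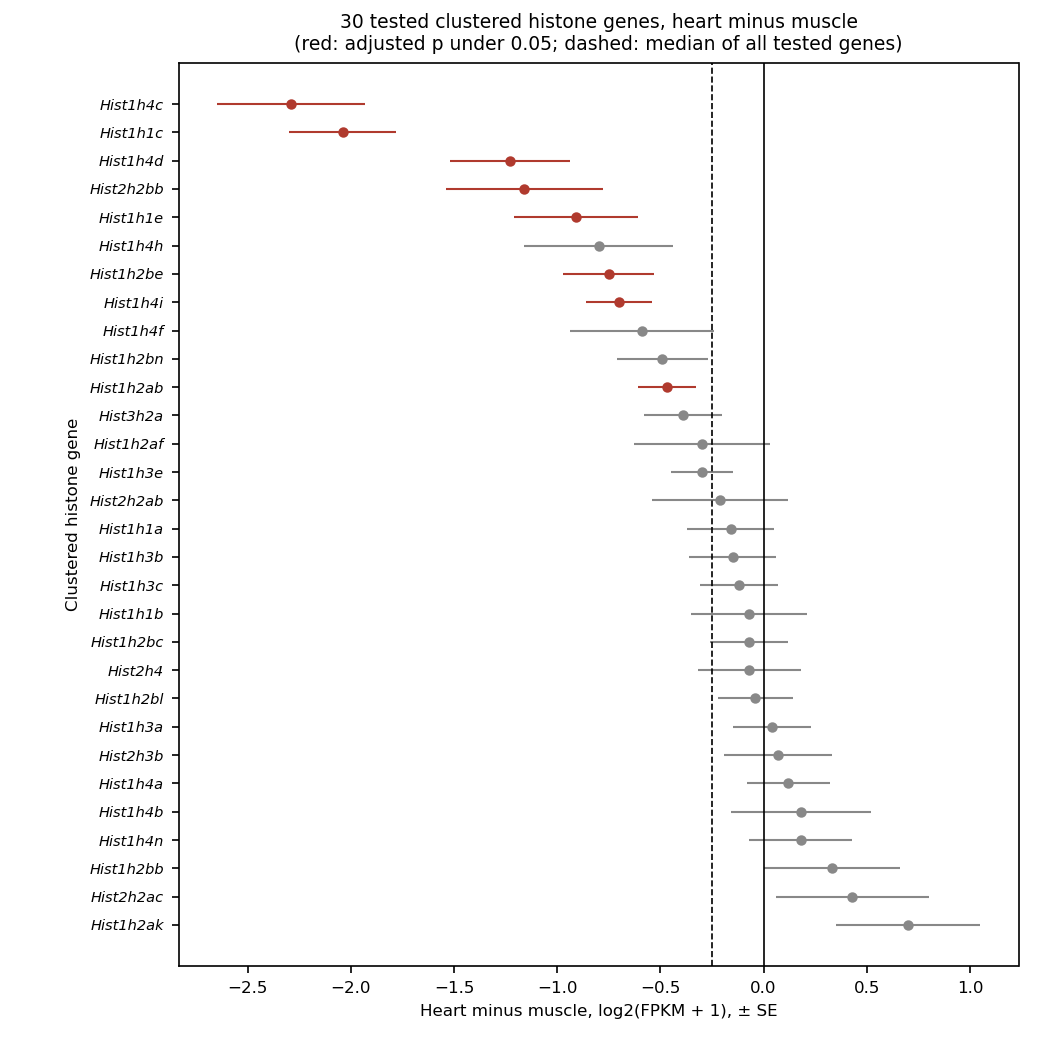
Heart minus muscle difference in log2(FPKM + 1) for the 30 clustered histone genes tested, with standard errors; red marks the 8 called by limma with Benjamini-Hochberg adjustment and the dashed line the median of all tested genes, -0.25. The largest decreases are those of Hist1h4c (-2.29) and Hist1h1c (-2.04), and Hist1h2bc lies near 0 (-0.07), with its sign turning positive after either rescaling.

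The differences that stood farthest from the all-gene median were those of Hist1h4c, -2.29 ± 0.36 (SE; limma adjusted p = 4.89e-05), and Hist1h1c, -2.04 ± 0.26 (adjusted p = 4.12e-06), both on the log2(FPKM + 1) scale with 10 libraries a tissue. Hist1h4d followed at -1.23 ± 0.29 (limma adjusted p = 0.00216). These 3 were called under each of 27 other settings, with differences of -3.97 to -1.92, -2.49 to -1.66 and -1.41 to -0.82. Hist1h1e, at -0.91 ± 0.30 (limma adjusted p = 0.0231), and Hist2h2bb, at -1.16 ± 0.38 (limma adjusted p = 0.0206), were called in 18 of 27, with adjusted p up to 0.156 and 0.103. Without muscle wild-type replicate 2, neither was called.

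The smaller calls were Hist1h2be at -0.75 ± 0.22 (limma adjusted p = 0.0107), Hist1h4i at -0.70 ± 0.16 (adjusted p = 0.00175) and Hist1h2ab at -0.47 ± 0.14 (adjusted p = 0.015). Hist1h4i and Hist1h2ab had no heart library at 1 FPKM, so they entered the test through muscle alone. Hist1h4i was above 0 in 5 muscle libraries, at 3.80 and 3.17 FPKM in wild type, 1.18 and 1.29 in mdx and 1.20 in trans/mdx with UAA replicate 1, or no more than 4.3 fragments. Hist1h2ab was above 0 in the wild-type and mdx muscle libraries, at 1.38, 1.15, 1.29 and 2.81 FPKM. Outside the calls, Hist1h4h differed by -0.80 ± 0.36 (limma adjusted p = 0.086), Hist3h2a by -0.39 ± 0.19 (adjusted p = 0.105) and Hist1h2ak by 0.70 ± 0.35 (adjusted p = 0.126). For Hist1h2bc the difference was -0.07 ± 0.19 (limma adjusted p = 0.799), and it turned to 0.33 and 0.39 under the scalings above.

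Both muscle libraries with the highest histone sums were also left out, an alternative chosen after seeing the data. That left 1 mouse each in the muscle wild-type and mdx groups. The median change was then -0.2 over the 25 members tested and -0.2 over all genes. Hist1h1e and Hist2h2bb left the set of called members, and Hist1h2bn, lower in heart, and Hist1h2ak, higher in heart, entered it. Of the muscle libraries kept, Hist1h2bn was above 0 only in wild-type replicate 1 (6.57 FPKM, at most 5.2 fragments). Hist1h2ak was above 0 only in trans/mdx replicate 2 (1.25 FPKM). The lower level of Hist1h2bn in heart thus rests on 1 muscle library. The other gene lists, here and below, were tested in the fit of all 20 libraries as deposited. There, 31.2% of all genes were called lower in heart and 10.4% higher. These lists were not refitted under the other scalings, where fewer genes were called lower. Of 9 histone genes tested outside the clusters, H1f0 (-1.23 ± 0.17, limma adjusted p = 1.71e-05), H2afz, H2afy and H3f3a fell in heart, and Cenpa, the centromeric H3, rose (1.08 ± 0.19, limma adjusted p = 0.000166). Among 16 histone mRNA processing genes tested, Snrpb and Sympk fell and none rose. Of 13 histone chaperone genes tested, Nasp, Atrx and Ssrp1 were higher in heart and Nap1l4, Hira, Daxx and Ubn1 lower. The highest of those lists were H3f3a, Snrpd3 (7.51 to 20.1 FPKM in heart libraries and 7.71 to 23.1 in muscle) and Atrx (13.2 to 34.9 and 9.64 to 30.1).

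Genes of dividing cells were mostly low. Of 36 S-phase genes, 19 reached 1 FPKM in a heart library and 19 in a muscle library, and 15 were tested between tissues; Ccne2, Rpa2 and Rrm1 fell in heart and none rose. No S-phase gene had 1 FPKM or more in all heart libraries, and 1 did in all muscle libraries. Pcna, the replication clamp and the highest of the list, ran from 0.633 to 5.56 FPKM in heart libraries and 1.03 to 4.43 in muscle. Slbp ran from 0 to 3.77 and 0 to 2.65 FPKM. Of 28 G2 and M phase genes 5 were tested, with Cenpf, at 1.79 to 4.54 FPKM in heart and at most 0.0848 in muscle, higher and Aurka lower in heart. Mki67, the proliferation marker, stayed at 0.854 FPKM or below in heart and 1.13 in muscle, and Top2a at 0.243 and 0.478.

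Markers of other cells were summed by list, and the ranges of the macrophage, erythroid, endothelial and fibroblast sums overlapped between tissues. All 8 lymphocyte markers stayed under 1 FPKM in all libraries, and Cd79a, a B cell gene, was at 0 in all of them. Macrophage markers summed to 7.88 to 37.9 FPKM in heart libraries and 4.11 to 25.3 in muscle, with 3 of 9 tested higher in heart. Erythroid markers summed to 98.4 to 286 and 36.8 to 159 FPKM (4 of 6 higher), endothelial to 25.7 to 49.4 and 19.7 to 38.6 (4 of 8 higher), and fibroblast to 42.4 to 104 and 38.7 to 228 (1 of 8 higher, 3 lower). Adipocyte markers summed to 67.8 to 134 FPKM in heart libraries and 167 to 661 in muscle (9 of 11 lower in heart). Of 8 satellite cell and myoblast markers, 7 were at 0 in all heart libraries, and the 4 tested were lower in heart. The highest of each list were Lyz2, Hbb-bs, Cdh5, Dcn, Fabp4 and Myh8. Their part in the histone differences was not tested.

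Within each tissue, 5 contrasts were tested with the 5 groups of the tissue in 1 fit: mdx minus wild type, transgenic minus wild type, trans/mdx minus transgenic, trans/mdx minus mdx, and UAA-treated minus untreated trans/mdx. These share groups, so they are not independent. The filter left 18 members among 8269 genes in heart and 27 among 9126 in muscle. By limma with Benjamini-Hochberg adjustment, 0 members were called in any of the 10. Among all genes, 0.0121% were called in heart for mdx minus wild type, 0.0121% for transgenic minus wild type and 0.0121% for trans/mdx minus mdx, 1 gene each, and 0% in the other 7. With 2 mice a group, a missing call does not show that levels were alike. At an unadjusted p under 0.05, the heart contrasts in that order had 2, 0, 2, 3 and 4 members, and the muscle contrasts 6, 4, 0, 7 and 1. Among all genes the shares were 2.65, 3.37, 4.17, 5.79 and 6.01% in heart and 10.1, 9.91, 3.79, 5.33 and 3.99% in muscle.

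In heart, the lowest p values for mdx minus wild type belonged to Hist1h4c (limma adjusted p = 0.113) and Hist1h4a (adjusted p = 1), both listed at 0 in the wild-type libraries. Hist1h4a had 1.85 and 1.86 FPKM in mdx and under 1 FPKM in the other heart libraries, so it passed the filter only through the group where it is high. Fitted with only the 4 libraries compared, Hist1h4c passed for mdx minus wild type (limma adjusted p = 0.00671) and for trans/mdx minus mdx (adjusted p = 0.00389, against 0.245 with all 10). In those fits it met the filter only through the mdx libraries, with the other group at 0, so these calls support nothing. Over 12 alternatives for each contrast its adjusted p ran to 1 and 0.766. The mdx mice differ from wild-type mice in strain label as well as in Dmd, and these cannot be told apart. Lower in mdx than in wild type, though not called, were Hist1h4b and Hist1h1b, which were at 0 in both mdx libraries and at 1.64 and 0.905, and 3.59 and 0, FPKM in wild type. The members' median change was 0.03, beside 0.07 for all genes.

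For transgenic minus wild type in heart the members' median was -0.28 and that of all genes -0.08. Hist1h4d differed by -0.89 ± 0.56 and Hist2h2ac by 0.83 ± 0.71 (limma adjusted p = 1 for both). Hist1h2af, an H2A gene, had 0 and 1.28 FPKM in transgenic, 0 and 2.57 in trans/mdx and 0 in all other heart libraries. For trans/mdx minus transgenic the medians were -0.01 and -0.11. Hist1h2bb, an H2B gene, had 3.37 and 0.974 FPKM in transgenic heart and 0 in both trans/mdx libraries. Hist1h2ak went the other way, with 0 and 0.847 against 4.95 and 2.55 FPKM (1.76 ± 0.64, limma adjusted p = 1). For trans/mdx minus mdx the medians were -0.26 and -0.26, and Hist1h4h differed by 1.07 ± 0.75 (limma adjusted p = 0.906), resting on 1 library at 17.5 FPKM.

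UAA treatment of trans/mdx mice left no heart member called. Hist1h4c had 0 and 0 FPKM without and 1.42 and 6.86 with UAA (limma adjusted p = 0.344). Hist1h4h had 17.5 and 2.87 without and 0 and 0 with it (limma adjusted p = 0.344). These H4 genes thus stood in opposite order. Hist2h4, on chromosome 3, differed by 1.21 ± 0.44 (limma adjusted p = 0.762), from 0 and 0.199 to 1.10 and 2.06 FPKM. Hist2h2ac was at 2.08 and 1.67 FPKM without and at 0 with UAA. The members' median was 0.05, beside 0.15 for all genes.

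In muscle, mdx minus wild type had a members' median of 0.28 beside -0.35 for all genes. Hist1h3e, an H3 gene at 0 in both wild-type libraries, had 1.95 and 2.82 FPKM in mdx (limma adjusted p = 0.348) and reached 1 FPKM in no other muscle library, so it was tested only through the group where it is high. Hist2h2bb differed by 1.51 ± 0.64 (adjusted p = 0.475). Hist1h2bc differed by -1.11 ± 0.43 (limma adjusted p = 0.449) and Hist1h1c by -0.99 ± 0.40 (adjusted p = 0.469). Both groups include a library that stands apart in its histone sum: the members' median was 0.85 over 23 tested without wild-type replicate 2 and -0.16 over 21 without mdx replicate 2. Muscle mdx replicate 2 also had the highest summed FPKM of S-phase genes, 29.2 against 15.9 to 27.0 in the other muscle libraries, and of G2 and M phase genes, 11.6 against 0.402 to 4.34. The same library also had the highest macrophage (25.3 FPKM), erythroid (159 FPKM) and satellite cell and myoblast (10.3 FPKM) sums in muscle. Its fibroblast, endothelial and adipocyte sums were not the highest. The parts of all these genes in its histone values were not tested.

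Transgenic minus wild type in muscle gave a members' median of -0.61, beside -0.33 for all genes. Without wild-type replicate 2 it was 0 over 23 tested, beside -0.07. Hist1h4i and Hist1h2bn were at 0 in both transgenic libraries and at 3.80 and 3.17, and 6.57 and 1.85, FPKM in wild type (limma adjusted p = 0.256 and 0.374). Besides wild type, Hist1h2bn reached 1 FPKM in muscle only in mdx replicate 2 (2.26 FPKM), so it was tested only through the group where it is high. With all 20 libraries in 1 fit Hist1h4i passed (limma adjusted p = 0.0347), in 1 of 12 alternatives. Hist2h2ab, an H2A gene, was at 0 in both wild-type libraries and had 0 and 3.47 FPKM in transgenic.

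For trans/mdx minus transgenic in muscle the medians were 0 and 0.05, with Hist1h4h at 1.19 ± 0.64 and Hist1h1e at -1.39 ± 0.75 (limma adjusted p = 1 for both). Hist1h4a had 1.76 and 0 FPKM in transgenic and 0 in both trans/mdx libraries, and Hist2h3b, an H3 gene, the reverse, with 0 and 1.35 FPKM in trans/mdx. For trans/mdx minus mdx the members' median was -0.85 against 0.07 for all genes, and 22 of 27 members lay below 0. Without mdx replicate 2, the library with the highest share of histone FPKM, the median was -0.04 beside 0.03, and 11 of 21 lay below 0. Hist1h3e and Hist1h2ab were at 0 in both trans/mdx libraries (limma adjusted p = 0.714 and 0.913). Highest in the other direction were Hist1h4h, 0.48 ± 0.64, and Hist1h1c, 0.26 ± 0.40 (limma adjusted p = 0.989 for both). With UAA, Hist2h2bb had 6.24 and 6.35 FPKM against 0 and 2.35 without (1.99 ± 0.64, limma adjusted p = 1), and Hist1h2be had 2.04 and 1.95 against 0.232 and 0.975 (0.94 ± 0.48, limma adjusted p = 1). In both genes the groups did not overlap, which groups of 2 mice can show by chance. The share of all genes that did so was not counted. Hist1h4c differed by -1.26 ± 0.88 and Hist1h4h by -0.87 ± 0.64 (limma adjusted p = 1 for both), and the medians were 0 and 0.02.

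The difference between the heart effect and the muscle effect of each of the 5 contrasts was tested over all 20 libraries. By limma, 0 of 30 members were called in any of them, with 0% of 10085 genes called, and 6, 4, 0, 5 and 2 members had an unadjusted p under 0.05 in the order of contrasts above. Of all genes, 6, 4.63, 3.89, 5.61 and 4.56% had. Within tissues, the other gene lists had no call apart from Scd1 of the adipocyte list, in heart for transgenic minus wild type.

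The summed FPKM of the members was compared with 9906 other genes by rank within each tissue, over 10 libraries each, as a description. The 5 most alike by mean Spearman correlation were Adprh (0.87 in heart and 0.84 in muscle), Mrc2 (0.88 and 0.83), Abhd13 (0.82 and 0.81), Api5 (0.99 and 0.64) and Dock6 (0.77 and 0.85). All had low levels, between 0.181 and 6.46 FPKM. With the number of members above 0, which shares the same libraries and depth, the sum correlated at 0.85 in heart and 0.38 in muscle. With the S-phase sum it correlated at 0.58 and 0.52, and with the sum of histone genes outside the clusters at 0.50 and 0.79. For the G2 and M phase sum the values were 0.66 and 0.25. Library properties were of similar size in heart only: 0.61 and -0.01 for the number of genes at 1 FPKM or more. For the FPKM value of 1 fragment per kilobase they were -0.63 and -0.14.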

How the data were processed

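The FPKM values were deposited by the authors in 1 table of 22564 genes and 20 libraries; 1 line without content was dropped. Per the submitters' processing notes, reads were trimmed with cutadapt 1.9.3, aligned to mm10 with HISAT2 2.0.4 and quantified with Cufflinks and Cuffdiff. Per the labels' protocols, libraries were made with a directional kit; whether counting used strand is not given in the sources used here. No column of the table belonged to another series, and no pair of libraries was identical. FPKM rests on how fragments shared between near-identical genes and overlapping loci were assigned, which bears on these genes.

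Here, log2(FPKM + 1) was tested with limma 3.58.1 (R 4.3.3) with an intensity trend, two-sided, Benjamini-Hochberg adjusted over all genes that reached 1 FPKM in 2 fitted libraries, threshold 0.05. A pseudocount of 1 understates changes of low genes. P-values rest on the spread between mice of the same group, pooled over all groups in the fit and moderated by limma toward genes of similar level. The fit was also run on simulated data, in which only genes of higher mean FPKM than most members were changed. It therefore does not show how the fit performs on genes as low as these. Of the 68 members, 61 were matched to GENCODE M21 by gene ID and 7 by symbol. Depth was estimated from the spacing of low values (79.7 to 91.1% within 0.1 of a step). Named genes were members called in any contrast, the 12 of highest median, the 2 smallest p in each direction per contrast, the highest of each type and cluster, and the highest and called genes of other lists; Hist2h2aa1, Hist2h2aa2, Hist1h2ac, Hist1h1d, Hist1h1a and the mates in head-to-head pairs were added after their values were seen. The members and lists were chosen with earlier results of these data known. Alternatives were other pseudocounts, filters, scalings, sets of libraries, blocks and leaving out each library.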

Additional observations from a re-analysis of the deposited data

How the results depend on the processing

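Over the 12 counts of called members, 169 values under alternatives stayed within 1.5 times the reported count and 4 did not. All of these counts except that for heart minus muscle were 0, and a 0 that stayed 0 was taken as unchanged. With almost no gene called in those comparisons, most of this tally was near fixed in advance and is no measure of stability. For heart minus muscle, quantile normalization gave 5 called members and leaving out single libraries gave 6 to 11. Restricting the fit to the 4 libraries compared gave 1 (Hist1h4c) for heart mdx minus wild type and 1 (Hist1h4c) for heart trans/mdx minus mdx, where it met the filter only through the mdx libraries, and 1 fit of all 20 libraries gave 1 (Hist1h4i) for muscle transgenic minus wild type; the cause was not tested. Within tissues, leaving out any single library gave 0 called members in every contrast. A replicate block for the mouse number gave 8 called members for heart minus muscle, with Hist1h4h in place of Hist1h2ab, and 0 for the differences between tissues, and a replicate block within a tissue gave 0 in all 10 contrasts. Same-numbered libraries did not deviate together (r of -0.02 to 0.01 between tissues, -0.10 to 0.07 within heart and -0.05 to 0.04 within muscle). This cannot tell whether the numbers mark the mouse, since the 2 tissues of a mouse need not deviate alike. The numbers were not taken to pair the samples because the sources do not say that they do.

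Signs turned only for members that were not called. For heart minus muscle, Hist1h2bc went to 0.33 with median-of-ratios scaling and 0.39 with quantile normalization, and Hist2h4 to 0.09 and 0.12. Leaving out single libraries moved Hist1h2bc between -0.16 and 0.02 and Hist2h4 between -0.25 and 0.12, and leaving out both muscle libraries with the highest histone sums, chosen after seeing the data, moved Hist2h4 to 0.29. Leaving out single libraries also moved Hist1h4h between -0.06 and 2.2 (heart trans/mdx minus mdx), Hist2h2ac between -0.17 and 1.82 (heart transgenic minus wild type), Hist1h4c between -3.1 and 0.57 (muscle UAA-treated minus untreated trans/mdx) and Hist1h1c between -0.06 and 0.58 (muscle trans/mdx minus mdx). Depth limits most members, whose short transcripts rest on few fragments, so a value of 0 is not absence.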
